A study of Mus musculus with 4 samples.

Results

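The genes that run mitosis were examined in NIH/3T3 cells, an immortalised line of mouse fibroblasts, after knockdown of *Setd2*. SETD2 is the enzyme that places the third methyl group on lysine 36 of histone H3 along transcribed genes. The 45 genes were chosen by name as the mitotic cyclins and kinases, the spindle checkpoint, the kinetochore, the chromosomal passenger complex and the proteins of the central spindle. They comprised 88 tested transcripts, of 34200 transcripts from 21945 genes in the whole table. All 45 genes were measured, 17 with 1 tested isoform and 28 with several, up to 5.

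KD cells had been co-transfected with 2 *Setd2* siRNAs and WT cells with a Scrambled siRNA that targets no gene, each at 10 nM. RNA was taken 48 h later and polyadenylated RNA was sequenced from 2 KD and 2 WT libraries, numbered as replicates within each group. Whether each library came from a separate transfection is not stated in the sources used here. Levels are normalised estimated counts, that is, read counts estimated for each isoform and scaled between libraries, and levels and log2(fold changes) describe KD against WT. The tables hold 1 mean, 1 variance and 1 effect per transcript, so levels are given per group, and values and depths of single libraries were not used here. The spread between replicates is given as the SD within groups on the log2 scale, pooled over both groups (n = 2 each). A transcript was called when the q-value of Sleuth's likelihood ratio test over all transcripts was under 0.05, and limma's moderated test on the same values was used as a second, stricter reading.

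*Setd2* itself fell from 3680 in WT to 923 in KD, a log2(fold change) of -1.99 ± 0.09 (SE), with an SD within groups of 0.048. All 10 fibroblast markers were tested, at levels from 3083 to 323250, and their summed level was 1259880 in WT and 1130179 in KD. Of 10 such markers 3 had a transcript called higher and 3 a transcript called lower, the collagens *Col1a1*, *Col1a2* and *Col3a1* among the latter. Of 14 markers of other cell types only 8 were in the table, with a summed level of 547 in WT and 643 in KD, and only *Cdh1* and *Cd68* were above 100. *Epcam*, *Krt5*, *Krt18*, *Myog*, *Ins2* and *Alb* were not among the transcripts tested.

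Mitosis is started by CDK1 bound to cyclins A and B, which WEE1 restrains and the CDC25 phosphatases release. Polo and Aurora kinases build the spindle, and kinetochores, large protein assemblies on the centromeres, hold the chromosomes to it. Kinetochores without microtubules feed the spindle checkpoint, which blocks the anaphase-promoting complex (APC/C), the ubiquitin ligase that has cyclin B and securin destroyed. Most of these genes are transcribed late in the cell cycle, when repression by the DREAM complex at CHR elements in their promoters gives way to activation by B-MYB and FOXM1, often together with NF-Y at CCAAT boxes. In a bulk sample, fewer cells in mitosis and less mRNA per cell cannot be told apart.

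The promoters below show these words in the genes with the largest changes. RefSeq promoters, from 250 bases before to 50 bases after each annotated start (GRCm38.p6), were found for 38 of the 45 genes, with 44 promoters in all, and not for *Aurkb*, *Ccna2*, *Cdc25c*, *Incenp*, *Spc24*, *Tpx2* and *Wee1*. The words searched on both strands were the CHR core TTTGAA, its variant TTCGAA and the CCAAT box, CCAAT. Each line holds 150 bases, 5′ to 3′ along the gene, of which 100 precede the start, and capitals mark the words on either strand (ATTGG is CCAAT and TTCAAA is TTTGAA read from the opposite strand). The first 4 lines are the members with the largest rises among called transcripts and the last 4 those with the largest falls.
Racgap1, chr15:99651607-99651756 (minus strand): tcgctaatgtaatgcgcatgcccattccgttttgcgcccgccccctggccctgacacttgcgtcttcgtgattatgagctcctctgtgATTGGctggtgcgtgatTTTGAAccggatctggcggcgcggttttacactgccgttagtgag
Aurka, chr2:172370521-172370670 (minus strand): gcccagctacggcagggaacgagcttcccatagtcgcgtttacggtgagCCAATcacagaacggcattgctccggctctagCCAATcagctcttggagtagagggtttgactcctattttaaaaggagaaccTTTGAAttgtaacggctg
Cdca8, chr4:124936868-124937017 (minus strand): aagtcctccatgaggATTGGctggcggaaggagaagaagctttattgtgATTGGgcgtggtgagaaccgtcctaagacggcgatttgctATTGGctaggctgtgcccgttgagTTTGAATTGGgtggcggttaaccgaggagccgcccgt
Bub3, chr7:131560270-131560419 (plus strand): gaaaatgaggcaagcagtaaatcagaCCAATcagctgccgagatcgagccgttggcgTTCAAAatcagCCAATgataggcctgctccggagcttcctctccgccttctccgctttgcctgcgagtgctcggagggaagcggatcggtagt
Cenpk, chr13:104228866-104229015 (plus strand): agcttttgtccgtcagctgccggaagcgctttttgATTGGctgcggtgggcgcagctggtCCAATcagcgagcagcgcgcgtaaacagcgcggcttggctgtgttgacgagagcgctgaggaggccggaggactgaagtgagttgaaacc
Plk4, chr3:40799851-40800000 (plus strand): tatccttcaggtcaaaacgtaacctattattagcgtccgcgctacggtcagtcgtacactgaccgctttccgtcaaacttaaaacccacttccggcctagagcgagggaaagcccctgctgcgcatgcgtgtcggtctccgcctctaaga
Ccnb2, chr9:70421505-70421654 (minus strand): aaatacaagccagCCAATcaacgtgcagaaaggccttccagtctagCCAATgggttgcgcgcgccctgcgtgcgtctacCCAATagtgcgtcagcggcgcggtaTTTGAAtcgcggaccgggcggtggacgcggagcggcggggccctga
Nuf2, chr1:169531415-169531564 (minus strand): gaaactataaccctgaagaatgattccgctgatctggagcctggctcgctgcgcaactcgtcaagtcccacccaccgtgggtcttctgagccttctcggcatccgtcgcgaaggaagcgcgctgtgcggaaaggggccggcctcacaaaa

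All 4 windows of genes that rose hold a CHR word, at or just past the annotated start in *Racgap1*, *Aurka* and *Cdca8* and upstream of it in *Bub3*. In *Cdca8* the CHR word and a reversed CCAAT box share a base. Among the genes that fell, the window of *Ccnb2* holds 3 CCAAT boxes and a CHR word, *Cenpk* holds 2 CCAAT boxes and no CHR word, and *Plk4* and *Nuf2* hold neither. The annotated starts lie 0 to 148 bases from the start of the called transcript, with *Bub3* the furthest. The called *Bub3* transcript starts at 131560222, before the first base shown. Its window and CHR word thus lie past the start of the transcript that rose, and not upstream of it.

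Over all members, TTTGAA was present in 24 of 44 promoters (54.5%) and in 17.9% of all 32851 mouse promoters in the table. TTCGAA was present in 4 of 44 member promoters (9.09%) and in 1.56% of all promoters. CCAAT was present in 33 of 44 (75.0%) and in 37.4% of all. Counted per gene, 23 of the 38 matched members held a CHR word of either kind, and all 23 held one that began between 50 bases before and 44 bases after a start. That share was 60.5%, against 6.12% over all genes and 4.45% over genes with a summed level of at least 100. The position of the word close to the start was thus shared by members with a transcript called higher and members not called. Of those called lower, only *Ccnb2* held the word near the start of its called transcript.

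**Figure D1:**
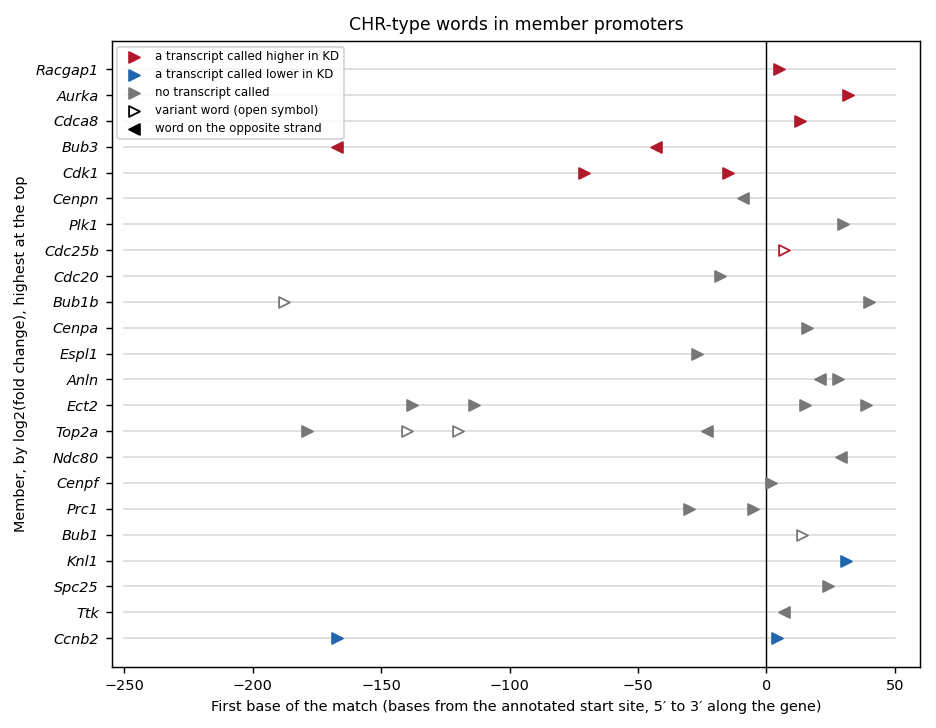
Position of CHR-type words in the promoters of the 23 members that hold one, in bases from each annotated start (x axis), with members ordered by log2(fold change) from the highest at the top. Triangles mark the first base of a word, pointing along the strand it is read on, filled for TTTGAA and open for its variant, and coloured by call. *Bub3*, *Ect2* and *Prc1* have several annotated starts, so the same word can appear more than once. Most words lie within 50 bases of the start, and they occur in members called higher, lower and not called. Calls are by gene, and in *Knl1* the start shown belongs to an isoform that was not called.

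The share with a CHR word was 6 of 8 among members with a transcript called higher and a known promoter, 2 of 8 among those called lower and 15 of 22 among those not called. The 2 members called lower that held it were *Ccnb2* and *Knl1*, and the 2 called higher that lacked it were *Fzr1* and *Mad1l1*. Calls were matched to promoters by gene. In *Knl1* the word lies at the start of ENSMUST00000099542.8 (119047119), an isoform that was not called (0.40 ± 0.58). The isoform called lower, ENSMUST00000028802.2, starts at 119057281, so the promoter searched was not its own. In *Bub3*, counted among the 6 called higher, the word lies past the start of the called transcript. The order was the opposite in 75 further mitotic genes with a promoter (APC/C genes, other kinetochore genes, condensin, cohesin and other spindle proteins). There 3 of 7 called higher and 8 of 14 called lower held a CHR word. Over all genes with a promoter, 14.5% of those called higher and 18.5% of those called lower held a CHR word, beside 75%, 25% and 68.2% of the members called higher, lower and not called. These are counts of letters in a window and no measure of binding.

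The 45 members as a group did not shift. The median log2(fold change), with levels summed over the tested transcripts of each gene, was 0.0018, with 23 genes above and 22 below 0. The 10th and 90th percentiles were -0.41 and 0.37, and 39 of 45 genes differed by less than 0.5. The median over all genes was -0.03. No member reached a log2(fold change) of 1 in size, the extremes being *Racgap1* at 0.99 and *Cenpk* at -0.86.

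Within this balance, 9 members rose and 8 fell, and none had transcripts called in both directions. Of the 88 transcripts 17 were called (19.3%), beside 12.5% of all transcripts tested and 21.4% of those with a mean of at least 100. Of all transcripts 7.26% were called higher and 5.21% lower. Counted by gene, 20% of members had a transcript called higher and 17.8% a transcript called lower, beside 10.1% and 7.43% of all genes. All members had a summed level of at least 100, and over all genes at that level the shares were 17.9% and 12.7%. The number of called members was therefore close to what genes of comparable level showed. By limma's moderated test, 7 of 88 member transcripts had an adjusted p-value under 0.05 (7.95%), beside 9.68% of all transcripts. All 7 were among the 80 member transcripts with a mean of at least 100 (8.75%), where the share over the table was 15.6%. Calls after centring came from a Wald-type test, the centred effect over its standard error. They therefore compare with the Wald calls below and not with the 17. After centring on the median of transcripts at that level, which was 0.05, 9 of the 80 were called higher (11.2%) and 13 lower (16.2%), beside 14.9% and 14.8% over the table. After centring on GC content 6 were called in each direction (7.5%), beside 12.4% and 12.4%. Without centring, the Wald test called 26 of the 80 (32.5%), 13 higher and 13 lower, beside 30.5% over the table. Likelihood ratio q-values adjusted over transcripts at that level alone called 30 (37.5%), beside 34.2%. With these adjusted q-values 16 of 45 members were called higher and 11 lower, beside 27.1% and 19.7% of all genes with a summed level of at least 100.

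**Figure D2:**
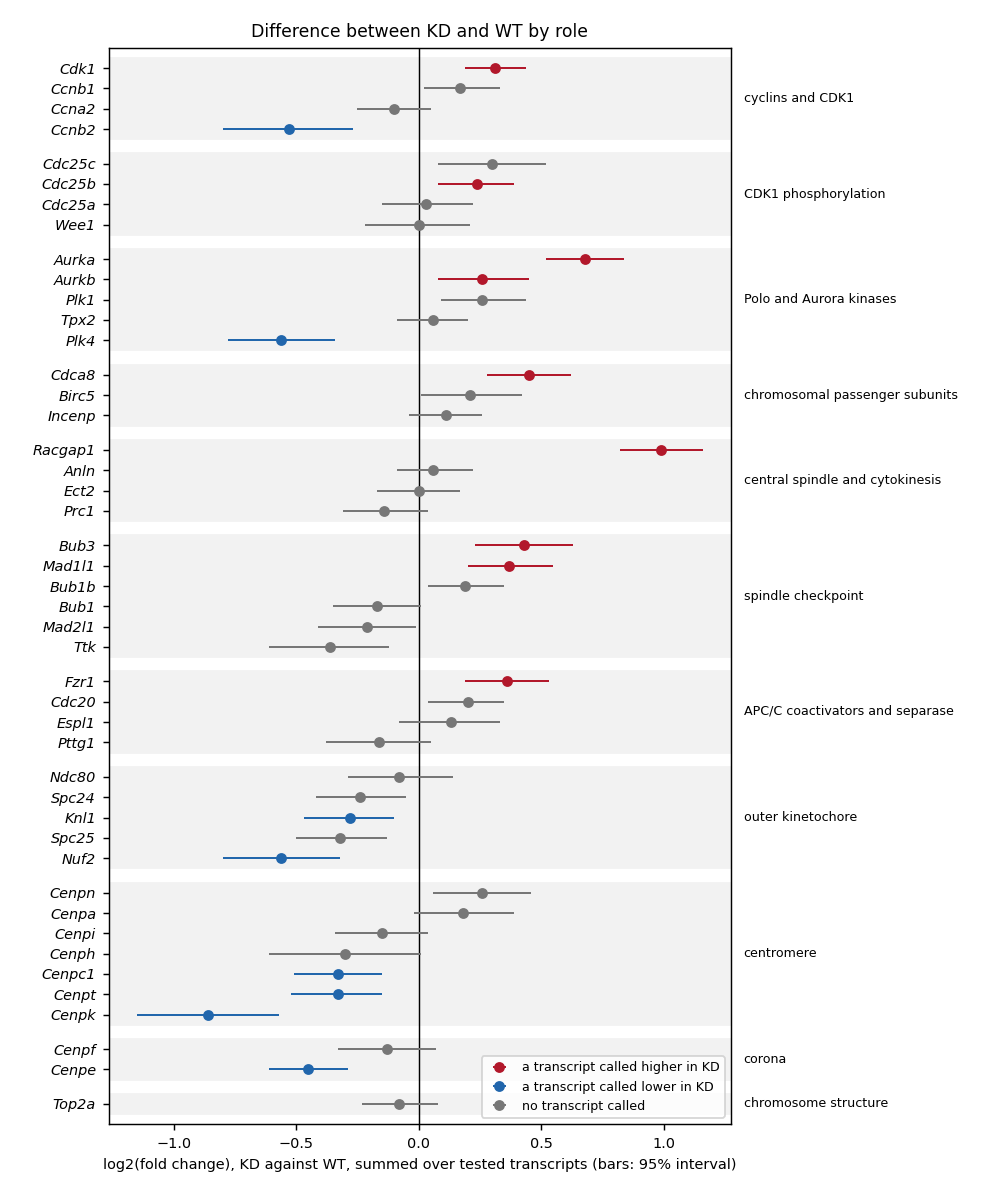
log2(fold change) of each member between KD and WT (x axis), summed over its tested transcripts, with members ordered by role (names at the right). Points are the values, and colours show whether a transcript of the gene passed the likelihood ratio test. Bars are 95% intervals that treat the isoforms of a gene as independent. *Racgap1* and *Aurka* stand furthest to the right and *Cenpk* furthest to the left, and 12 of the 14 outer kinetochore, centromere and corona genes lie below 0.

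The largest rise was that of *Racgap1*, the GTPase-activating subunit of centralspindlin, which with ECT2 sets the site of the cleavage furrow. Its main isoform, ENSMUST00000023756.11 (chr15:99620497-99651656, GRCm38, 17 exons), rose from 3702 in WT to 7463 in KD. The log2(fold change) was 1.01 ± 0.08 (SE), far beyond the SD within groups of 0.049, with an adjusted p of 0.016 by limma's moderated test. The likelihood ratio q was 0.0103, the smallest value in the table, which *Setd2*, *Rrm2* and other transcripts shared at this rounding. The other tested isoform, ENSMUST00000171702.7, had levels of 696 in WT and 1267 in KD, a log2(fold change) of 0.86 ± 0.33 that did not pass (q = 0.092). The 3 other genes of the central spindle and cytokinesis showed no such change. *Anln*, which scaffolds the contractile ring, was at 8176 in WT and 8553 in KD (log2(fold change) 0.06 ± 0.08). *Ect2*, the exchange factor that RACGAP1 recruits, was at 3877 and 3882 (0.00 ± 0.09), and *Prc1*, which bundles the midzone microtubules, at 7407 and 6723 (-0.14 ± 0.09).

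Among the Polo and Aurora kinases, *Aurka* rose, *Aurkb* rose less and *Plk4* fell. *Aurka*, the kinase of centrosomes and spindle poles, rose in its main isoform ENSMUST00000109140.9 (chr2:172356190-172370535, 9 exons) from 2186 in WT to 3545 in KD. This was a log2(fold change) of 0.70 ± 0.09, with an SD within groups of 0.049, q = 0.0117 and an adjusted p of 0.0207 by limma's moderated test. The other tested *Aurka* isoforms, ENSMUST00000028997.7 and ENSMUST00000109139.7, have the same sequence in the annotation, so they share their reads. Each was at 138 in WT and 200 in KD and did not pass (q = 0.107). *Tpx2*, the protein that activates AURKA on the spindle, was at 6008 in WT and 6252 in KD (0.06 ± 0.07).

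*Aurkb*, the kinase of the chromosomal passenger complex, rose in ENSMUST00000021277.5 from 1923 to 2412, a log2(fold change) of 0.33 ± 0.10 with q = 0.0478, close to the threshold, and an adjusted p of 0.0887 by limma's moderated test. *Plk1*, the main Polo kinase of mitotic entry, was at 2086 in WT and 2502 in KD. Its log2(fold change) of 0.26 ± 0.09 narrowly missed the threshold (q = 0.0502).

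*Plk4*, the Polo kinase that starts centriole duplication, moved the other way. Its main isoform ENSMUST00000026858.10 (chr3:40800019-40816883, 16 exons) fell from 2232 in WT to 1439 in KD. The log2(fold change) was -0.63 ± 0.12, with an SD within groups of 0.094, q = 0.0201 and an adjusted p of 0.032 by limma's moderated test. A shorter isoform, ENSMUST00000167556.6, was at 223 in WT and 222 in KD, and its share of *Plk4* went from 9.07% to 13.3%. The remaining isoform was near 0, at 2.69 and 4.6.

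All 3 other members of the chromosomal passenger complex had a higher summed level in KD than in WT, but 1 was called. *Cdca8*, which encodes borealin, rose in ENSMUST00000084296.9 (chr4:124918465-124936917, 10 exons) from 3057 to 4185. Its log2(fold change) was 0.45 ± 0.08, with an SD within groups of 0.027, q = 0.0166 and an adjusted p of 0.032 by limma's moderated test. Its other isoform had the same size of difference, 0.44 ± 0.28, on levels of 693 and 938, without passing. *Birc5* (survivin) was at 3981 in WT and 4617 in KD (0.21 ± 0.10), and *Incenp*, the scaffold of the complex, at 5450 and 5884 (0.11 ± 0.08).

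**Figure D3:**
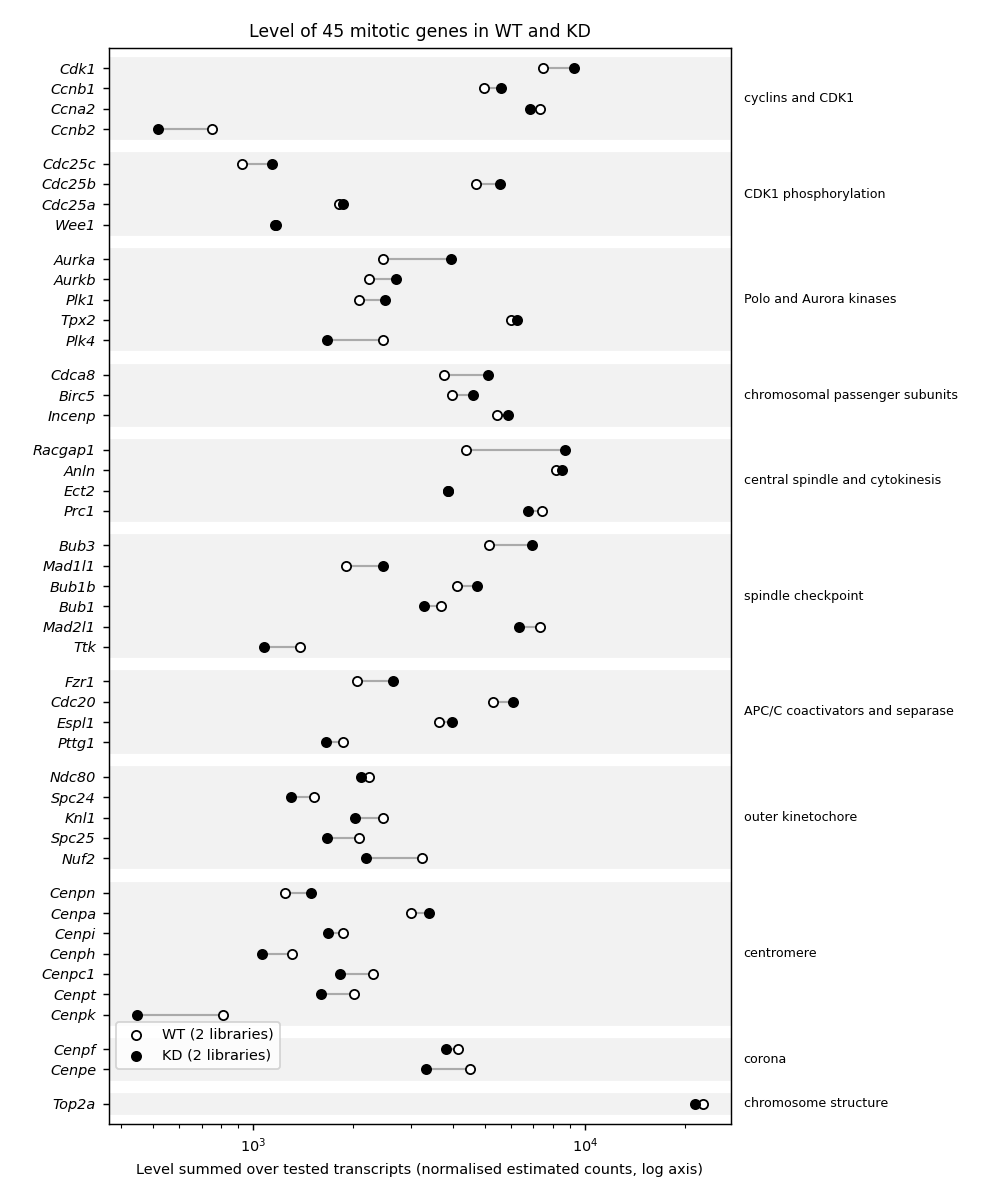
Level of each of the 45 members in WT (open circles) and KD (filled circles), summed over the tested transcripts, in normalised estimated counts on a log axis, ordered by role. Each circle is the level of a group of 2 libraries and the line joins the groups. The widest gaps are those of *Racgap1*, *Aurka*, *Cenpk* and *Plk4*, and *Top2a* is the most abundant member.

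CDK1 and its cyclins did not move as a unit. *Cdk1* rose in ENSMUST00000119827.7 from 4681 in WT to 6104 in KD (log2(fold change) 0.38 ± 0.09, q = 0.0346, adjusted p = 0.0636 by limma's moderated test). Its other isoform, ENSMUST00000020099.12, which was at 2787 and 3170, missed the threshold (0.19 ± 0.09, q = 0.0642). *Ccnb2*, which encodes cyclin B2, fell in its only tested transcript ENSMUST00000034742.7 (chr9:70407692-70421547, 9 exons) from 751 to 519. The log2(fold change) was -0.53 ± 0.14, with an SD within groups of 0.046, q = 0.0298 and an adjusted p of 0.0435 by limma's moderated test. The more abundant cyclins were not called. *Ccnb1* was at 4972 in WT and 5605 in KD (0.17 ± 0.08) and *Ccna2* at 7342 and 6853 (-0.10 ± 0.08). Of the words of 31 bases in the main *Ccnb1* transcript only 53.1% were particular to this gene, the lowest share among the main isoforms of the members, so part of its reads may have been divided with other copies.

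The regulators of CDK1 phosphorylation differed among themselves. *Cdc25b* rose in ENSMUST00000079857.8 from 3321 to 4158 (0.32 ± 0.09, q = 0.0372, adjusted p = 0.0669 by limma's moderated test). Its second isoform was at 1381 and 1386 (0.01 ± 0.17). The difference between the isoforms was not tested, their 95% intervals overlap, and only 2.52% and 5.23% of their words of 31 bases are particular to the isoform. *Cdc25c* was at 927 in WT and 1143 in KD (0.30 ± 0.11, q = 0.0652). *Cdc25a* was at 1822 and 1866 (0.03 ± 0.09), and *Wee1*, the kinase that opposes the CDC25 phosphatases, at 1170 and 1167, the smallest difference in this role.

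The 6 checkpoint genes went in both directions. *Bub3*, which brings BUB1 and BUBR1 to the kinetochore, rose in ENSMUST00000084502.6 from 4732 to 6479 (0.45 ± 0.11, q = 0.0372). *Mad1l1*, the kinetochore receptor of MAD2, rose from 1905 to 2467 (0.37 ± 0.09, q = 0.0307). Neither passed limma's moderated test, with adjusted p-values of 0.0553 and 0.062. *Bub1b*, which encodes BUBR1, was at 4128 in WT and 4719 in KD (0.19 ± 0.08). The other 3 lay below 0 without a called transcript. *Bub1* was at 3684 and 3266 (-0.17 ± 0.09). *Mad2l1*, the checkpoint effector that MAD1 presents, was at 7330 and 6329 (-0.21 ± 0.10). *Ttk*, the kinase MPS1 at the top of the pathway, was at 1386 and 1078 (-0.36 ± 0.13).

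Of the genes that act at anaphase, *Fzr1*, which encodes the APC/C coactivator CDH1, rose in ENSMUST00000140901.7 from 1855 to 2403 (0.37 ± 0.09, q = 0.0282, adjusted p = 0.0526 by limma's moderated test). *Cdc20*, the coactivator that the checkpoint blocks, was at 5296 in WT and 6073 in KD. Its log2(fold change) of 0.20 ± 0.08 exceeded the SD within groups of 0.02, but q was 0.0516. *Espl1* (separase) was at 3634 and 3967 (0.13 ± 0.11), and *Pttg1*, its inhibitor securin, at 1862 and 1665 (-0.16 ± 0.11). *Top2a*, the topoisomerase that untangles sister chromosomes, was the most abundant member, at 22681 in WT and 21517 in KD (-0.08 ± 0.08), and was not called.

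Of the 14 genes of the outer kinetochore, centromere and corona, 6 had a transcript called lower and none a transcript called higher, and 12 of 14 had a summed log2(fold change) below 0, with a median of -0.29. Among the 31 other members, 9 were called higher and 2 lower, and 21 were above 0, with a median of 0.13. Over all genes with a summed level of at least 100, 12.7% were called lower and 17.9% higher. By limma's moderated test 2 of the 14 kinetochore genes were lower and none higher, beside 9.95% lower and 13.0% higher over such genes. By the Wald test 7 were lower and 1 was higher, beside 17.8% and 24.6%. The grouping by role was made with the results of these data known, so these counts are a description.

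At the centromere, *Cenpk* showed the largest fall of all members before, but not after, centring on GC content. CENP-K is a subunit of the constitutive centromere network that binds CENP-A chromatin. ENSMUST00000070761.9 (chr13:104228955-104247133, 10 exons) fell from 398 in WT to 206 in KD. This amounted to a log2(fold change) of -0.95 ± 0.19, with an SD within groups of 0.14, q = 0.0226 and an adjusted p of 0.0332 by limma's moderated test. After centring on GC content it was -0.52 and still called, level with *Cenpt* and smaller than *Ccnb2*. Its second isoform, ENSMUST00000022227.7, was at 415 and 241, a difference of similar size (-0.78 ± 0.22) that missed the threshold (q = 0.0533). *Cenpt*, which links centromeric DNA to the NDC80 complex, fell from 2017 to 1603 (-0.33 ± 0.09, q = 0.0466, adjusted p = 0.0928 by limma's moderated test). *Cenpc1*, the other such link, fell from 2298 to 1832 (-0.33 ± 0.09, q = 0.038), with an adjusted p of 0.0731 by limma's moderated test, and was at -0.11 and not called after centring on GC content. *Cenph* was at 1313 in WT and 1068 in KD (-0.30 ± 0.16), and *Cenpi* at 1864 and 1678 (-0.15 ± 0.10). *Cenpn* (0.26 ± 0.10, levels of 1247 and 1492) and *Cenpa*, the centromeric histone H3 variant (0.18 ± 0.10, levels of 2991 and 3398), were the exceptions above 0, and neither was called.

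In the outer kinetochore all 5 genes lay below 0. *Nuf2*, the partner of NDC80 in binding microtubules, had 3 isoforms, all lower in KD. ENSMUST00000111368.7 fell from 1104 to 786 (-0.49 ± 0.13, q = 0.0365, adjusted p = 0.0517 by limma's moderated test), and the most abundant one, ENSMUST00000028000.12, was at 1898 and 1287 (-0.56 ± 0.19), with a larger SD within groups of 0.19 and q = 0.0726. *Knl1*, the scaffold on which BUB3 and BUB1 assemble, fell in ENSMUST00000028802.2 from 2226 to 1800 (-0.31 ± 0.09, q = 0.0492, adjusted p = 0.09 by limma's moderated test). *Spc25* was at 2081 in WT and 1672 in KD (-0.32 ± 0.09), *Spc24* at 1530 and 1299 (-0.24 ± 0.09) and *Ndc80* itself at 2235 and 2121 (-0.08 ± 0.11). The 4 subunits of the NDC80 complex thus differed by -0.08 to -0.56, and 1 of them had a called transcript.

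In the corona, the outermost layer, *Cenpe*, a kinesin that carries chromosomes to the spindle equator, fell in ENSMUST00000062893.11 (chr3:135212537-135273611, 46 exons) from 4522 to 3313. The log2(fold change) was -0.45 ± 0.08, with an SD within groups of 0.014, the smallest of any called member, q = 0.016 and an adjusted p of 0.0313 by limma's moderated test. *Cenpf* was at 4159 and 3808 (-0.13 ± 0.10).

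GC content moved with these differences over the whole table. Among genes with a level of at least 100 for their most abundant isoform, the median log2(fold change) was -0.34 for isoforms under 40% GC and 0.23 between 55% and 60%, and the share called lower went from 30% to 4.48% while the share called higher went from 2.81% to 28.3%. Members showed the same course. Over the most abundant isoforms of 43 members with a sequence, log2(fold change) and GC content had a Pearson's r of 0.63 and a Spearman's rho of 0.66, beside 0.34 and 0.38 over 11722 genes. These correlations are across genes, which share the libraries and are not independent replicates. Length showed no such relation, with a Spearman's rho of -0.07 over the members.

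**Figure D4:**
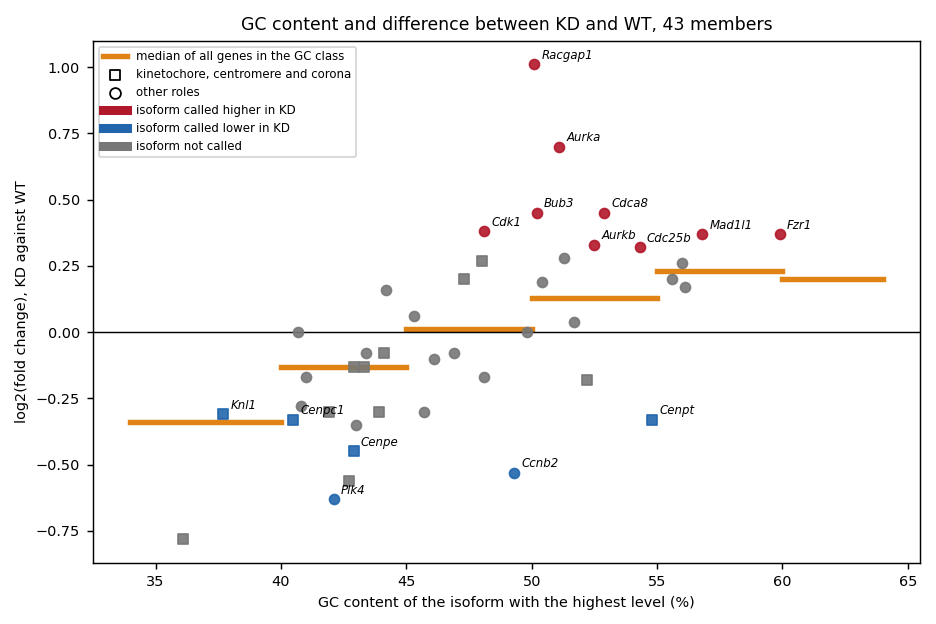
log2(fold change) between KD and WT (y axis) of the most abundant isoform of 43 members against its GC content (x axis). Squares are kinetochore, centromere and corona genes, circles the other roles, colours give the call of that isoform, and orange lines are the medians of all genes in each GC class (the lowest and highest classes are open-ended). Members rise with GC content along the orange lines, and *Racgap1*, *Aurka*, *Ccnb2*, *Cenpt* and *Plk4* lie furthest from them.

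The 9 members called higher had a GC content of 48.1% to 59.9% (median 52.5%) and the 8 called lower one of 36.1% to 54.8% (median 42.4%). The kinetochore genes had a median of 43.1% and the other members one of 49.8%. After centring on the running median over GC content, the most abundant isoforms of the 14 kinetochore genes had a median of -0.13, with 9 below and 5 above 0. The median of -0.29 given above is for summed levels without centring. For the 29 other members with a sequence, the median of the most abundant isoforms after centring was 0.04. Calls after this centring are those of the Wald-type test, and the Wald test without centring called all 17. Among called transcripts, *Racgap1* was then at 0.94, *Aurka* at 0.61, *Bub3* at 0.38, *Cdk1* at 0.34 and *Cdca8* at 0.31, all still called. *Ccnb2* at -0.60, *Cenpt* at -0.52, *Plk4* at -0.49 and *Cenpe* at -0.33 were also still called, as was *Cenpk*, which went from -0.95 to -0.52. The other 7 were not. *Aurkb* went from 0.33 to 0.19, *Nuf2* from -0.49 to -0.35 and *Cenpc1* from -0.33 to -0.11. *Knl1*, with a GC content of 37.7%, was at 0.07 in place of -0.31. *Fzr1*, *Mad1l1* and *Cdc25b*, with a GC content of 59.9%, 56.8% and 54.3%, were at 0.15, 0.16 and 0.15. The part of GC content in the differences between KD and WT was not tested.

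The deposited variance also shows whether the libraries of the groups could overlap. KD and WT libraries cannot overlap where the effect exceeds the square root of the sum of squares within groups. This held for 55 of 88 member transcripts (62.5%), 27 higher and 28 lower in KD, beside 54.8% of all transcripts tested. Among transcripts with a mean of at least 100 the shares were 65% of members and 65.3% of all. In 22 member transcripts the libraries must overlap, and in 11 the summary values do not decide, beside 11693 and 3762 of all 34200. All 17 called transcripts were of the first kind. Calls and overlap rest on the same deposited effect and variance, so this adds no support to the calls.

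When the p-values of all transcripts of a gene were combined, which gives no direction, 23 of 45 members had a q under 0.05, beside 24.0% of all genes and 41.3% of genes with a summed level of at least 100. They included *Cdc20*, *Cdc25c*, *Plk1*, *Spc24*, *Spc25*, *Bub1b* and *Ttk*, none of which had a called transcript. Conversely *Knl1*, called in 1 of 3 isoforms, had a combined q of 0.0954. *Racgap1* and *Aurka* had the smallest combined q-values, 0.00064 and 0.000848.

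Isoform use changed little. In the 28 members with several tested isoforms the largest shift in share had a median of 1.65 percentage points, and only *Tpx2* exceeded 5 points. Its main isoform ENSMUST00000109816.7 went from 58.2% of the gene in WT to 52.9% in KD, with a log2(fold change) of -0.08 ± 0.09, while its 3 other isoforms lay between 0.21 and 0.26. *Prc1* was similar, since its most abundant isoform ENSMUST00000163812.8 was at 3064 in WT and 2481 in KD (-0.30 ± 0.12) and ENSMUST00000174172.7 at 1236 and 1422 (0.20 ± 0.13). Only 0.0334% and 2.38% of the words of these *Prc1* isoforms are particular to the isoform. In *Aurkb* the minor isoform ENSMUST00000108666.7 lay at -0.19 ± 0.33, against the rise of the main one. Minor isoforms also lay opposite the main one in *Knl1* (ENSMUST00000099542.8, 0.40 ± 0.58), *Ect2* (ENSMUST00000176242.8, -0.70 ± 0.49) and *Cdc25a* (ENSMUST00000198308.4, -0.41 ± 0.51). The same held in *Cenpn* (ENSMUST00000212775.1, -0.12 ± 0.64), *Pttg1* (ENSMUST00000020687.14, 0.57 ± 1.34), *Birc5* (ENSMUST00000093906.4, -0.01 ± 0.12) and *Plk4* (ENSMUST00000203295.2, 0.68 ± 4.29). None of these minor isoforms was called.

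**Figure D5:**
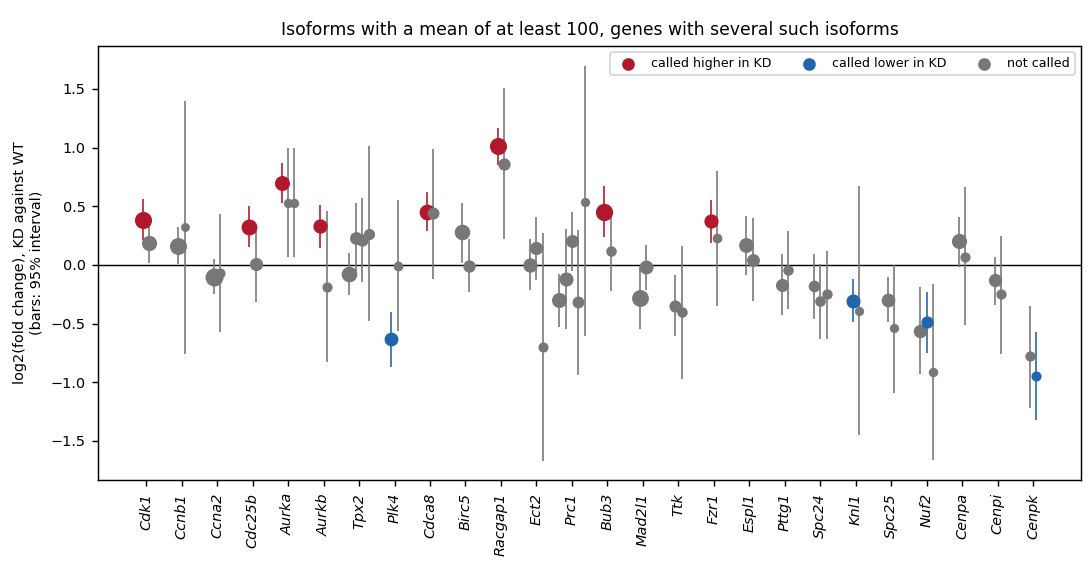
log2(fold change) between KD and WT (y axis) of each isoform with a mean of at least 100, for members with several such isoforms (x axis, by role). Points grow with the level of the isoform, bars are 95% confidence intervals and colours give the call. The isoforms of *Racgap1*, *Aurka*, *Cdca8*, *Nuf2* and *Cenpk* lie on the same side of 0, and minor isoforms have wide intervals.

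Per kilobase of the isoforms, *Cdk1* was the most abundant member with a mean level of 4945 per kb, followed by *Top2a* at 4231 and *Birc5* at 3800. The lowest were *Knl1* at 296, *Wee1* at 342 and *Cenpf* at 358 per kb. The members that changed most lay between these, *Racgap1* at 2100, *Aurka* at 1669, *Plk4* at 597 and *Cenpk* at 479 per kb.

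Related genes outside the 45 gave the following counts, to be read against 17.9% called higher and 12.7% called lower among all genes with a summed level of at least 100, since the lists had median levels of 1624 to 4132. Of 17 APC/C genes (subunits, E2 enzymes and *Fbxo5*), 4 rose and 2 fell, the largest changes being *Anapc7* (0.55 ± 0.08) and *Cdc23* (-0.58 ± 0.09). Of 27 other kinetochore and centromere genes, 1 rose and 5 fell, and 19 lay below 0. The one that rose was *Pmf1* of the MIS12 complex (0.56 ± 0.09), and the largest fall was that of *Cenpp* (-0.67 ± 0.16). Of 19 condensin and cohesin genes none rose and 4 fell, led by *Ncapg2* (-0.47 ± 0.09). By limma's moderated test the counts higher and lower were 2 and 1 for the APC/C, 1 and 1 for the other kinetochore genes, and 0 and 2 for condensin and cohesin. These compare with 13.0% higher and 9.95% lower by that test over genes with a summed level of at least 100. Falls thus did not outnumber rises among the other kinetochore genes with that test, and their 5 falls (18.5%) by the likelihood ratio test stood beside 12.7%.

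Of 24 further mitotic kinases and spindle proteins, 2 rose and 6 fell. *Nek7*, a kinase of the NIMA family, fell from 3464 to 939 in ENSMUST00000027642.4 (-1.88 ± 0.13), a larger change than that of any member, and *Ccnf* had the largest rise (0.58 ± 0.08). Of 24 transcriptional regulators of mitotic genes, a list that also holds the CDK inhibitor gene *Cdkn1a*, 6 had a transcript called higher and 6 a transcript called lower. The largest rise was that of *E2f2* (0.87 ± 0.20) and the largest fall that of a *Cdkn1a* isoform (-0.69 ± 0.16), while another *Cdkn1a* isoform rose. *E2f6* was not among the transcripts tested. Of 28 S phase genes, 4 rose and 5 fell, with *Rrm2*, the small subunit of ribonucleotide reductase, at 1.63 ± 0.08 and *Ccne2*, cyclin E2, at -0.82 ± 0.15. By limma's moderated test the counts higher and lower were 1 and 4 for the mitotic kinases and spindle proteins, 4 and 5 for the regulators and 4 and 4 for the S phase genes. The shares by that test over genes with a summed level of at least 100 were 13.0% higher and 9.95% lower.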

How the data were processed

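RNA-seq of 2 KD and 2 WT (Scrambled) libraries of NIH/3T3 cells was used, grouped by the condition in the labels. Per the labels and the paper's methods, stranded libraries of polyadenylated RNA were sequenced, and the authors estimated transcript counts with Kallisto and compared the groups with Sleuth. The submitters' processing notes name bcl2fastq 2.17, HISAT2, sleuth and GRCm38. The transcriptome used as index was not given in the sources used here. The means, effects and standard errors that the authors deposited are on the natural log scale of normalised estimated counts plus 0.5. The authors' variances, over the 4 libraries and from the assignment of reads, are on the same scale. The p-values and q-values that the authors deposited come from Sleuth's likelihood ratio and Wald tests across the whole table, and in a second table from their combination per gene, which carries no direction. The depth of the libraries is unknown, so no counting interval is given.

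Since the files hold these summaries and not counts of single libraries, calls rest on the deposited likelihood ratio q-values (under 0.05), as planned for this case. To obtain log2(fold changes), effects were divided by ln 2. Group levels are the exponential of the mean plus or minus 0.5 times the effect, minus 0.5, and were added up over the isoforms of each gene. Sums of squares within groups were obtained from the deposited variance and effect, with 2 residual degrees of freedom. The 95% intervals of transcripts use the deposited standard errors (z = 1.96). For summed genes, isoform standard errors were weighted by share of the level, and the root of their summed squares was taken. This treats isoforms as independent, although they share libraries and reads, so these errors can be too small. limma 3.58.1 (R 4.3.3) gave a moderated test with a trend on the mean, with Benjamini-Hochberg adjustment over 34200 transcripts. It was tested on simulated data. Positions, GC content and words of 31 bases came from the GENCODE annotation of GRCm38, which held 86 of the 88 member transcripts, and not those of *Cdc25c* and *Incenp*. Centring on GC content used 50 classes, smoothed over neighbouring classes. After either centring, calls used a normal p-value of the centred effect over its standard error, with Benjamini-Hochberg adjustment.

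The members, their roles and the companion lists were chosen with earlier results of these data known. Genes were named by rule: every called member transcript, each member by role, isoforms that moved in opposite directions, and in companion lists the called transcripts with the largest rise and fall. The 8 promoters shown are those of the largest called rises and falls among members. Alternatives were the Wald test, limma's test, a limit of 100 on the mean, centring on the median and on GC content, and the most abundant isoform in place of the sum.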

Additional observations from a re-analysis of the deposited data

How the results depend on the processing

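Of the 17 called member transcripts, 7 kept their call under all 5 alternatives (Wald test, limma's moderated test, a limit of 100 on the mean, centring on the median and centring on GC content): *Aurka*, *Ccnb2*, *Cdca8*, *Cenpe*, *Cenpk*, *Plk4* and *Racgap1*. The other 10 were not past the threshold in limma's moderated test. Of these, only *Bub3*, *Cdk1* and *Cenpt* passed after centring on GC content, where calls came from the Wald-type test. *Knl1* changed direction under that centring, to 0.07, without passing. The Wald test called 26 member transcripts, limma's test 7, and the limit of 100, with q-values adjusted over fewer transcripts, 30, beside 30.5%, 15.6% and 34.2% of all transcripts with a mean of at least 100 (members 32.5%, 8.75% and 37.5%). Members with a transcript called higher numbered 3 by limma's test and 16 with the limit, beside 9, and those called lower 4 and 11, beside 8. Over all genes with a summed level of at least 100 the shares were 13.0% and 27.1% higher and 9.95% and 19.7% lower. The companion lists of mitotic, regulator and S phase genes held 17, 27, 19, 24, 24 and 28 tested genes. Over them the likelihood ratio test called 17 genes higher and 28 lower, the Wald test 27 and 38, and limma's test 12 and 17. Over all genes with a summed level of at least 100 the shares higher and lower were 17.9% and 12.7%, 24.6% and 17.8%, and 13.0% and 9.95%. Apart from what the construction of these tests shows, the cause was not tested. Taking the most abundant isoform in place of the sum moved 4 genes by about the standard error of the sum or more, *Cdk1* to 0.38, *Cdc25b* to 0.32, *Tpx2* to -0.08 and *Prc1* to -0.30.

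No paired analysis was possible because the files give no values of single libraries, and leaving out each replicate in turn was not run for the same reason. With 2 libraries per group and depth unknown, the called member transcript nearest to 0 was that of *Knl1* at -0.31.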
